A study of Mus musculus with 8 samples.

Results

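The stage change of Cnot4-null spermatocytes is the difference in RNA level between cells in leptotene or zygotene (LZ) and cells in pachytene or diplotene (PD) when CNOT4 is missing. It was measured gene by gene over every gene whose FPKM, a level normalized to transcript length and to the mapped fragments of the library, was above 1 in at least 1 of the 4 Cnot4-null libraries, which gave 15537 genes of the 23235 gene symbols in the files. The same filter kept 13688 genes in the 4 WT libraries and 15899 in all 8. The series sequenced RNA of mouse spermatocytes that had been sorted by flow cytometry after staining with Hoechst and propidium iodide. There were 4 groups of 2 libraries, LZ and PD of each genotype, all from male C57BL/6 mice that the methods give as 6 weeks old. The Cnot4-null cells, labelled Cnot4-KO, came from Cnot4 fl/fl;Stra8-Cre males, in which Cre under the Stra8 promoter removes exon 2 of Cnot4 in male germ cells and leaves the somatic cells of the testis with the floxed allele. The methods call the duplicates biological replicates, and the labels do not say whether each came from its own animal.

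In leptotene and zygotene, chromosomes break their DNA, pair and begin to synapse. In pachytene, synapsis is complete, crossovers form, the X and Y chromosomes are gathered in the sex body and silenced, and a new transcription program supplies the parts of the acrosome and the sperm tail while many transcripts of the earlier stages are cleared. CNOT4 is a ubiquitin ligase that binds the CCR4-NOT complex, the main machine that shortens poly(A) tails and so starts the decay of mRNAs.

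The stage labels were checked on marker genes first. 8.58 and 9.22 FPKM of Dmc1, the meiotic strand exchange protein of zygotene, were found in the Cnot4-null PD replicates 1 and 2, against 132 and 81.8 in the LZ replicates. Ldhc, the lactate dehydrogenase of germ cells from pachytene on, was at 146 and 35.1 at LZ and 4585 and 1474 at PD. For both genes the pair of LZ libraries lay apart from the pair of PD libraries in the direction that the labels give. The study reports a check of the sorted cells by staining for SYCP3 and pH2AX. Even so, the most abundant gene in each PD library was Insl3, a hormone of the Leydig cells between the tubules. Its FPKM was 8.25 and 16.9 at LZ and 9669 and 21608 at PD. Summed over the 80 markers in the files of Sertoli, Leydig, peritubular myoid, endothelial, matrix-forming, macrophage and red blood cells, the level was 378 and 307 at LZ and 11345 and 24837 at PD, and in WT 576 and 491 at LZ and 446 and 361 at PD. Most of the sum in each Cnot4-null PD library was Insl3. The Sertoli cell markers alone summed to 196 and 316 at Cnot4-null PD, against 308 and 272 at WT LZ. Pooled over all these markers, the sums of the 2 Cnot4-null PD libraries stood far apart from those of the other 6, although the cells had been sorted as spermatocytes. Of the 61 of these markers that were tested, 35 were above 1 FPKM in at least 1 LZ library, so the LZ libraries also held some of these transcripts. Markers of spermatids were also higher there than in the other libraries, with a summed FPKM of 4572 and 918 at LZ and 20405 and 10052 at PD, and of 2134 and 1902 at LZ and 1091 and 848 at PD in WT. In bulk RNA of this kind, more or fewer cells of a type and more or less RNA per cell cannot be told apart. What part these transcripts had in the stage change of other genes was not tested, and the values below describe the sorted PD fraction as it was sequenced.

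The 2 PD libraries differed from each other more than the 2 LZ libraries did. The log2 difference of replicate 2 minus replicate 1 had an SD across the 15537 genes of 1.00 at PD and 0.70 at LZ. At PD, 1675 genes were at least 1 log2 unit higher in replicate 2 and 2103 at least 1 unit lower, together 24.3% of the genes. At LZ the counts were 237 and 791, together 6.62%. The difference ran with function. Of 30 pachytene and diplotene genes 29 were higher in PD replicate 1, as were 33 of 34 axoneme genes and 18 of 21 spermatid genes, beside 8188 of all 15537 genes. LZ replicate 1 was also above LZ replicate 2 for 23, 23 and 18 of these genes, beside 9397 of all. PD replicate 2 was the higher one for 17 of 17 immediate early genes, 16 of 16 matrix genes and 12 of 12 macrophage genes, beside 7266 of all genes. Replicate 1 was also the higher PD library for 76 of 83 ribosomal protein, 70 of 78 oxidative phosphorylation and 33 of 39 proteasome genes. LZ replicate 1 was the higher LZ library for 74, 71 and 29 of them. PD replicate 1 therefore held more RNA of late meiotic and spermatid genes, but not of these alone. PD replicate 2 held more RNA of somatic and rapidly induced genes. Summed FPKM was 821201 and 699802 at LZ and 893372 and 676452 at PD.

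**Figure D1:**
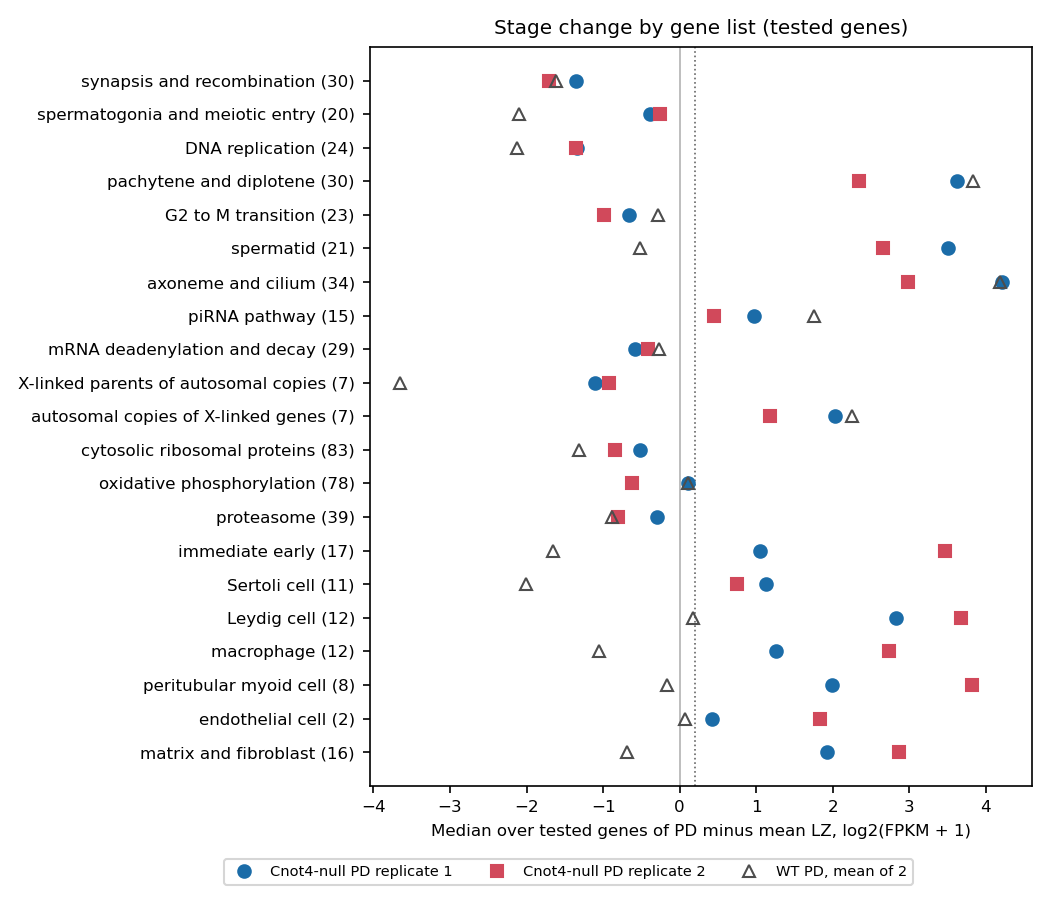
Median over the tested genes of each list of the log2(FPKM + 1) level at PD minus the mean at LZ, for Cnot4-null PD replicate 1 (circles), Cnot4-null PD replicate 2 (squares) and the mean of the 2 WT PD libraries (triangles), with the number of genes tested in brackets and a dotted line at the median of all genes, 0.20. Axoneme genes had medians of 4.21 and 2.98 in the Cnot4-null replicates, immediate early genes 1.06 and 3.47, and spermatid genes 3.51 and 2.66 against -0.52 in WT.

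In the limma fit of the 4 Cnot4-null libraries, 2989 genes were higher at PD (19.24% of the genes tested) and 1473 were lower (9.48%) at an adjusted p under 0.05. The median log2 change was 2.71 among the genes called higher and -1.44 among those called lower. Of the genes called higher, 2988 rose at least 2-fold and 553 at least 16-fold, and 1353 had a mean of at most 1 FPKM at LZ. Genes of that kind enter the test through the libraries in which they are high, so this count follows in part from the filter. Of those called lower, 1434 fell at least 2-fold and 15 at least 16-fold, and 76 ended at a mean of at most 1 FPKM. The counts rest on all 4 libraries, with each lone library assumed to vary like the pair that remains. Without LZ replicate 1, 1021 genes were called higher and 47 lower. Without LZ replicate 2 the counts were 265 and 27, without PD replicate 1 they were 1798 and 203, and without PD replicate 2 they were 2104 and 295. Of 69 named genes that passed the test, 34, 23, 30 and 32 passed it in these 4 fits, and 0 changed direction.

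The median change of all genes was 0.20, or 0.15 with PD replicate 1 alone and 0.18 with PD replicate 2 alone. Quantile normalization moved it to -0.31, and with it 41.5% of the called genes were higher instead of 67.0%. Changes of lists are therefore also given relative to the median of all genes.

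The 10 largest rises included 3 genes of the somatic lists, Insl3, Cyp17a1 and Dcn. Insl3 rose by 10.13 log2 units (SE 0.52, limma adjusted p = 0.00168, higher in 2 of 2 PD libraries). Lcn2, a secreted lipocalin of epithelial and inflamed tissue, went from 2.31 and 0.907 FPKM at LZ to 973 and 1958 at PD, a log2 change of 9.10 (SE 0.46). Ptgds, the lipocalin-type prostaglandin D synthase, went from 2.21 and 1.47 to 866 and 1919.8, a change of 8.84 (SE 0.44). In each of these 3 genes PD replicate 2 was above PD replicate 1, and both were far above the LZ libraries. Fabp3, a fatty acid carrier, was at 3.43 and 3.38 at LZ and 1219 and 2033 at PD, a log2 change of 8.48 (SE 0.33). Gstm1, a glutathione transferase, was at 5.49 and 3.78 at LZ and 819 and 1258 at PD, a change of 7.51 (SE 0.34). Dcn, the matrix proteoglycan decorin of connective tissue cells, was at 0.942 and 0.0925 at LZ and 210.4 and 455 at PD, a change of 7.74 (SE 0.49). These genes followed the same order, with LZ near the floor and PD replicate 2 highest. Mgp, the matrix Gla protein, was listed at 0 in both LZ libraries and at 216 and 172 in PD replicates 1 and 2, so here replicate 1 was the higher. The rest of the 10 largest rises were Akr1cl, an aldo-keto reductase, with a log2 change of 8.36 (SE 0.38), Agt, the precursor of the angiotensins, with 7.59 (SE 0.46), and Cyp17a1, an enzyme of androgen synthesis, with 7.496 (SE 0.39). The limma adjusted p of the 10 genes lay between 0.00117 for Fabp3 and 0.00233 for Dcn.

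The 10 largest falls included 3 genes of the lists, Rhox13, Ccnb3 and Dmc1. Prss50, a testis serine protease, had FPKM of 349 and 197 at LZ and 5.08 and 3.47 at PD, a log2 change of -5.66 (SE 0.38, limma adjusted p = 0.00251). Fmr1nb, an X-linked testis gene, was at 533 and 245 at LZ and 25.6 and 26.7 at PD, a change of -3.74 (SE 0.42). Syngr1, which encodes a vesicle membrane protein, was at 71.1 and 61.5 at LZ and 4.73 and 6.87 at PD, a change of -3.32 (SE 0.31). The PD libraries lay below the LZ libraries in all 3 genes, and the PD duplicates lay near each other. Hist1h1a, a linker histone of dividing cells, went from 26.0 and 24.1 to 0.571 and 0.696, a change of -3.997 (SE 0.33). Ccnb3, an X-linked cyclin of early meiotic prophase, went from 30.6 and 16.3 to 1.498 and 0.348, a change of -3.67 (SE 0.49). Rhox13, an X-linked homeobox gene of germ cells, went from 225 and 212 to 22.9 and 7.92, a change of -3.91 (SE 0.49). The falls of these genes left PD levels that differed between the duplicates for Ccnb3 and Rhox13, lower in replicate 2. The other genes among the 10 largest falls were Dmc1, with a log2 change of -3.41 (SE 0.33), Rad51ap2, a binding partner of strand exchange proteins, with -3.71 (SE 0.41), Gal3st1, the enzyme that sulfates the germ cell glycolipid seminolipid, with -3.33 (SE 0.43), and Nudt17, a Nudix hydrolase, with -3.32 (SE 0.35).

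**Figure D2:**
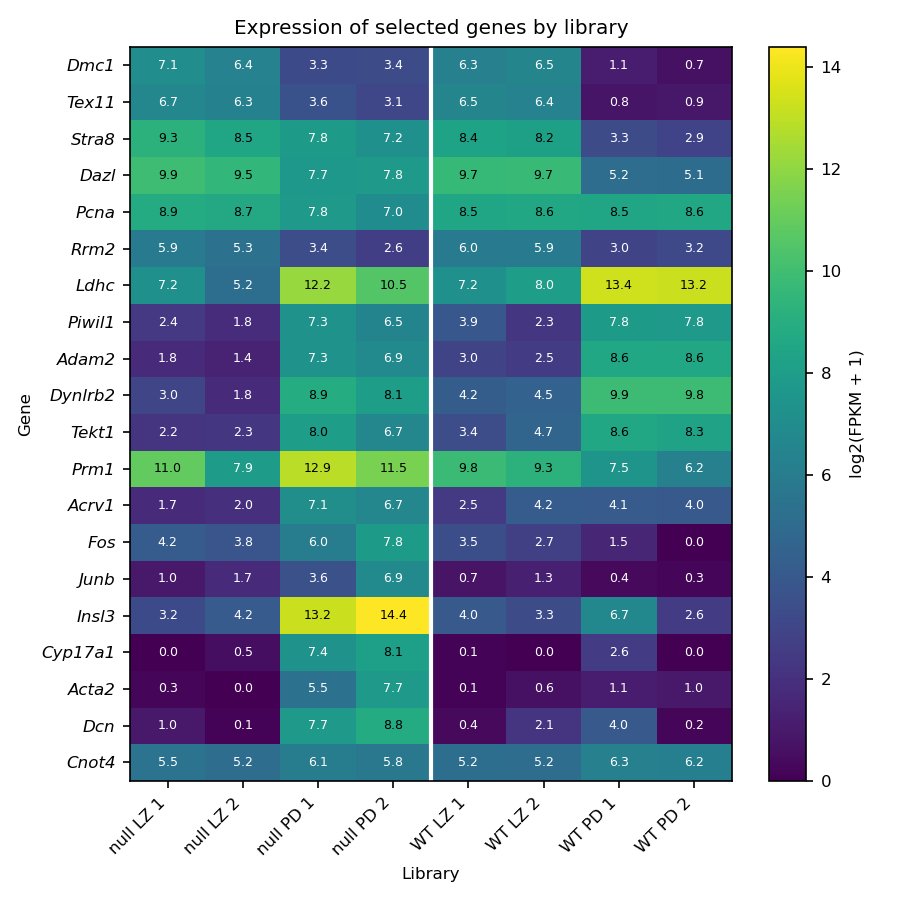
Level of 20 genes, most of them members of the lists described here, in the 4 Cnot4-null and the 4 WT libraries, as log2(FPKM + 1), with the value in each cell. Dmc1 went from 132 and 81.8 FPKM at LZ to 8.58 and 9.22 at PD in Cnot4-null, Dynlrb2 from 6.95 and 2.37 to 482 and 273, and Insl3 from 8.25 and 16.9 to 9669 and 21608.

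Genes of spermatogonia and meiotic entry were still measured at PD. Of 20 tested, 1 rose (5.0%) and 4 fell (20%), beside 19.24% and 9.48% of all genes, with a median log2 change of -0.39 (-0.58 relative to all genes), -0.38 with PD replicate 1 and -0.26 with PD replicate 2. The median was -0.63 without LZ replicate 1 and -0.16 without LZ replicate 2. The summed FPKM was 2561 and 2209 at LZ and 956 and 976 at PD. Dazl, an RNA-binding protein that germ cells need for their identity, was at 966 and 736 at LZ and 200.2 and 221 at PD and fell by 1.998 log2 units (SE 0.30, limma adjusted p = 0.00882). Ythdc2, a helicase that holds cells in the meiotic program, was at 32.0 and 26.9 at LZ and 6.39 and 6.05 at PD, a log2 change of -2.07 (SE 0.29, limma adjusted p = 0.00783), and its partner Meioc, listed as Gm1564, was at 105 and 66.4 at LZ and 34.4 and 24.7 at PD, a change of -1.48 (SE 0.35). These genes were lower in both PD libraries than in either LZ library. Stra8, the retinoic acid target that starts meiosis, was at 614 and 355 at LZ and 228 and 149 at PD, a change of -1.34 that did not pass the test (SE 0.40, limma adjusted p = 0.0539). Uchl1, a ubiquitin hydrolase of spermatogonia, was at 250.2 and 355 at LZ and 202 and 232 at PD, and Dmrt1, a factor that keeps spermatogonia out of meiosis, at 119.6 and 167 at LZ and 48.1 and 95.7 at PD. Sall4, a zinc finger protein of spermatogonia, was at 18.2 and 18.6 at LZ and 14.8 and 18.9 at PD. The stages thus overlapped or nearly met for Sall4, while Uchl1 and Dmrt1 were lower at PD by less than the test could separate. Id4, an inhibitor of helix-loop-helix factors known from spermatogonial stem cells, was the gene of the list that rose, from 9.48 and 6.17 to 35.4 and 22.8, a change of 1.76 (SE 0.37). Gfra1, a receptor of undifferentiated spermatogonia, was at 0.661 and 1.32 at LZ and 1.80 and 3.75 at PD and did not pass the test.

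The WT libraries differed at this list. The summed FPKM in WT was 2278 and 2258 at LZ and 202 and 207 at PD, and the median stage change was -2.10. The stage change was called higher in Cnot4-null than in WT by the limma test of the difference for 15 of the 20 genes and lower for 0. Over all genes that difference was called higher for 26.0% and lower for 3.97%, which is the base for this tally and those of the other lists. At WT PD, Uchl1 was at 10.9 and 6.22 FPKM, Dmrt1 at 1.88 and 1.03 and Stra8 at 8.70 and 6.47, all far below the Cnot4-null PD values given above. The differences between the stage changes were 5.04 for Uchl1 (limma adjusted p = 0.000993), 5.03 for Dmrt1 (limma adjusted p = 0.00160) and 3.86 for Stra8 (limma adjusted p = 0.00226).

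Most DNA replication genes fell. Of 24 tested, 15 fell (62.5%, beside 9.48% of all genes) and 0 rose (beside 19.24%), and the median was -1.35 (-1.55 relative to all genes), close in both PD libraries at -1.34 and -1.36. Rrm2, the regulated subunit of ribonucleotide reductase, was at 57.8 and 39.8 FPKM at LZ and 9.58 and 5.26 at PD, a log2 change of -2.59 (SE 0.39, limma adjusted p = 0.00901). Mcm3, a subunit of the replicative helicase, was at 75.4 and 70.9 at LZ and 22.4 and 18.9 at PD, a change of -1.78 (SE 0.27, limma adjusted p = 0.00918). In both genes the 2 PD libraries were below the 2 LZ libraries. Gins4, a subunit of the GINS complex of the replication fork, was at 71.0 and 49.98 at LZ and 72.7 and 44.0 at PD and Mcm7, another helicase subunit, at 80.1 and 76.1 at LZ and 74.2 and 51.1 at PD, and neither passed the test. The fall reached less far than in WT for Mcm3, which was at 1.72 and 1.92 at WT PD, with a difference between the stage changes of 2.82 (limma adjusted p = 0.00139). It reached further for Pcna, the sliding clamp, which was at 463 and 405 at LZ and 218 and 126 at PD in Cnot4-null and at 367 and 378 in WT PD, a difference of -1.37 (limma adjusted p = 0.0343). Over the list the difference was called higher for 8 genes and lower for 2.

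Genes of synapsis and recombination also went down. Of 30 tested, of 31 sought, 19 fell (63.3%) and 1 rose (3.33%), beside 9.48% and 19.24% of all genes, with a median of -1.47 (-1.67 relative to all genes), -1.36 with PD replicate 1 and -1.70 with PD replicate 2. The summed FPKM was 6098 and 3811 at LZ and 2727 and 1647 at PD. Among the larger falls of the list were those of Prdm9, Tex11 and Mei1. Prdm9, the histone methyltransferase that sets recombination hotspots, was at 32.5 and 17.0 at LZ and 1.81 and 3.42 at PD, a log2 change of -2.80 (SE 0.45, limma adjusted p = 0.0107). Tex11, an X-linked protein of crossover sites, was at 102 and 80.5 at LZ and 11.4 and 7.45 at PD, a change of -3.16 (SE 0.33, limma adjusted p = 0.00430). Mei1, needed for break formation, was at 18.3 and 14.0 at LZ and 2.95 and 1.85 at PD, a change of -2.34 (SE 0.36, limma adjusted p = 0.00974). Both PD libraries were below both LZ libraries in all 3 genes. Rad21l, a meiotic cohesin subunit, was at 10.9 and 4.99 at LZ and 0.536 and 0 at PD, a change of -2.77 (SE 0.50). Spo11, the enzyme that cuts the DNA, was at 24.5 and 11.7 at LZ and 56.6 and 35.2 at PD, a change of 1.34 that did not pass the test (SE 0.45, limma adjusted p = 0.0728). Psmc3ip, a cofactor of strand exchange, was the gene that rose, from 109 and 78.8 to 402 and 202, a change of 1.61 (SE 0.41, limma adjusted p = 0.0366).

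Among synaptonemal complex genes of the list, Sycp1, Sycp3, Syce2 and Tex12 fell and Sycp2, Syce1 and Syce3 did not pass the test. Syce2 had a log2 change of -1.689 (limma adjusted p = 0.0182) and Tex12 one of -2.225 (limma adjusted p = 0.0075). Sycp1, the transverse filament, was at 749.9 and 478 FPKM at LZ and 150.04 and 127 at PD, a log2 change of -2.11 (SE 0.33, limma adjusted p = 0.0104). Sycp3, a protein of the lateral elements, was at 1725 and 907 at LZ and 473 and 259.6 at PD, a change of -1.83 (SE 0.47, limma adjusted p = 0.0372). Both fell, and for Sycp3 PD replicate 2 was lower than PD replicate 1 and LZ replicate 2 lower than LZ replicate 1. Syce1, a central element protein, was at 172 and 135 at LZ and 289.7 and 145 at PD, and Sycp2, the partner of Sycp3, at 208 and 143 at LZ and 126 and 96.4 at PD, and neither change passed the test. In WT, Sycp3 was at 650.2 and 906 at LZ and 785 and 799 at PD, and the stage change was lower in Cnot4-null by 1.88 log2 units (limma adjusted p = 0.0429). Over the list the difference from WT was called higher for 7 of 30 genes, near the share over all genes, and lower for 3. The 250 bases before the RefSeq start of Sycp3 (GRCm38.p6, chr10:88459337-88459586, plus strand) are shown because the gene fell and its upstream sequence holds 2 copies of the E-box CACGTG, the letters that helix-loop-helix factors bind, at -64 and -43 from the start (in capitals).
Sycp3: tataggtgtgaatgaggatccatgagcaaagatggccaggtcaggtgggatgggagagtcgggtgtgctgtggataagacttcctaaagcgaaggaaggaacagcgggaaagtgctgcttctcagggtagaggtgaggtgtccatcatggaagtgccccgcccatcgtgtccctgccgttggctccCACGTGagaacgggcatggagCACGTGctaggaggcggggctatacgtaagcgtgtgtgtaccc
CACGTG reads the same on both strands, and it was found in the 250 upstream bases of 6 of the 24 genes of this list with a sequence in the RefSeq table, which were Hormad1, Stag3, Syce2, Sycp1, Sycp3 and Tex12. The share was 9.30% of 10811 tested genes, 11.3% of 1059 called lower, 7.25% of 1987 called higher and 6.86% of all 27025 genes in the table. A match describes the letters and was not tested for binding.

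Most pachytene and diplotene genes rose. Of 30 tested, 23 rose (76.7%) and 1 fell (3.33%), beside 19.24% and 9.48% of all genes, with a median of 2.97 (2.78 relative to all genes), 3.62 with PD replicate 1 and 2.34 with PD replicate 2. The summed FPKM was 2537 and 1432 at LZ and 17354 and 6959 at PD. Adam2, a sperm surface protein, was at 2.48 and 1.69 FPKM at LZ and 160.2 and 115 at PD, a log2 change of 5.48 (SE 0.33, limma adjusted p = 0.00225). Spata16, a Golgi protein of acrosome formation, was at 1.31 and 1.06 at LZ and 150.2 and 52.6 at PD, a change of 5.37 (SE 0.53, limma adjusted p = 0.00408). Ldhc rose by 5.16 log2 units (SE 0.82, limma adjusted p = 0.0106). Each of the 3 was lower in both LZ libraries than in either PD library, and higher in PD replicate 1 than in PD replicate 2. Ccna1, the cyclin needed to leave meiotic prophase, was at 1.47 and 1.62 at LZ and 83.0 and 28.2 at PD, a change of 4.28 (SE 0.54), and Ybx2, which stores mRNAs in germ cells, was at 38.9 and 35.1 at LZ and 489 and 371 at PD, a change of 3.49 (SE 0.28). Hspa2, the heat shock protein of spermatocytes, was at 76.0 and 42.9 at LZ and 411 and 203 at PD, a change of 2.32 (SE 0.46). Cyclin, chaperone and storage protein thus rose in the same libraries as the metabolic and acrosomal genes. Tex101, a surface glycoprotein of germ cells, was the gene that fell, from 1569 and 934 to 302 and 113, a change of -2.70 (SE 0.55, limma adjusted p = 0.0199). Mybl1, the transcription factor known to start much of the pachytene program, was at 5.35 and 3.24 at LZ and 8.60 and 3.38 at PD, and Tcfl5, another factor of that program, at 43.5 and 51.6 at LZ and 123 and 64.4 at PD, and neither passed the test.

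In WT the list summed to 1762 and 2062 at LZ and 32754 and 32659 at PD, above both Cnot4-null PD libraries, with a median stage change of 3.83. The difference between the stage changes was called higher for 2 genes and lower for 3. Tcfl5, at 270.4 and 294 in WT PD, had a difference of -1.81 (limma adjusted p = 0.0253), Tbpl1, a TBP-like factor of germ cells at 127 and 58.0 in Cnot4-null PD and 334 and 335 in WT PD, -1.97 (limma adjusted p = 0.0242), and Psma8, the proteasome subunit of spermatocytes at 102 and 52.2 in Cnot4-null PD and 312 and 294 in WT PD, -1.71 (limma adjusted p = 0.0268). Calr3, a chaperone of the endoplasmic reticulum of germ cells, was at 14.7 and 3.91 at LZ and 65.8 and 23.6 at PD in Cnot4-null and at 10.5 and 10.2 at LZ and 1.40 and 1.11 at PD in WT, with a difference of 4.55 (limma adjusted p = 0.0101). Tcfl5, Tbpl1 and Psma8 were therefore lower at Cnot4-null PD than at WT PD, and Calr3 was higher.

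The upstream sequences of Ldhc and Piwil1 are shown as examples of genes that rose from LZ to PD. The capitals in Ldhc (GRCm38.p6, chr7:46861013-46861262, plus strand, 1 of 2 starts in the table, ranked first by number of matches) mark TGACGT, the core of the cAMP response element, at -61 and -47. Those in Piwil1 (chr5:128735996-128736245, plus strand) mark CACGTG at -179 and -154.
Ldhc: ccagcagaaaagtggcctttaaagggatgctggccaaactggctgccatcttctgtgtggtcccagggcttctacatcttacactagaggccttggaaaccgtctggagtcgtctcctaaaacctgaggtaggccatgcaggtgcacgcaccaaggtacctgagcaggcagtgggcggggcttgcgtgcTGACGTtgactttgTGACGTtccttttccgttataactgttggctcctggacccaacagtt
Piwil1: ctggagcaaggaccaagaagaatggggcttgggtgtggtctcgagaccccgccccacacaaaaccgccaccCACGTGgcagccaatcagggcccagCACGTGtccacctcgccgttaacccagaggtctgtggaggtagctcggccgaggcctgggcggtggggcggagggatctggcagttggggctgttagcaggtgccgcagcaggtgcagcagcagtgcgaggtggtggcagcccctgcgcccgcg
TGACGT, searched on both strands and counted also where it is part of TGACGTCA, was found upstream of 1 of 20 pachytene and diplotene genes with a sequence, and of 7.70% of the genes called higher, 12.1% of those called lower and 10.7% of all tested. The 8 letters TGACGTCA were found in 2.06%, 3.49% and 2.98% of the same groups and in 1.77% of all genes in the table, where TGACGT was in 7.29%. CACGTG was found upstream of 7 of the 14 piRNA pathway genes with a sequence, beside 9.30% of all tested and 7.25% of those called higher. It was found for 3 of 20 pachytene and diplotene, 1 of 25 axoneme and 0 of 18 spermatid genes.

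Genes of the axoneme, the microtubule core of the sperm tail, and of the intraflagellar transport that builds it mostly rose. Of 34 tested, 29 rose (85.3%) and 0 fell, beside 19.24% and 9.48% of all genes, with a median of 3.62 (3.43 relative to all genes), 4.21 with PD replicate 1 and 2.98 with PD replicate 2. Of the list, 28 genes were above 1 FPKM in at least 1 LZ library, and the others enter the test through the PD libraries in which they are high. The summed FPKM went from 551 and 396 at LZ to 7345 and 3335 at PD. Dynlrb2, a dynein light chain, was at 6.95 and 2.37 at LZ and 482 and 273 at PD, a log2 change of 6.14 (SE 0.51, limma adjusted p = 0.00326). Spag6, of the central pair of microtubules, was at 0.441 and 1.43 at LZ and 109 and 54.9 at PD, a change of 5.39 (SE 0.47, limma adjusted p = 0.00349). Tekt1, a filament inside the microtubule wall, was at 3.60 and 3.80 at LZ and 255 and 100.3 at PD, a change of 5.10 (SE 0.48, limma adjusted p = 0.00379). All 3 were low at LZ and higher in PD replicate 1 than in PD replicate 2. Rsph1, of the radial spokes, was already at 89.9 and 52.9 at LZ and reached 1784 and 701 at PD, a change of 3.9995 (SE 0.53). The genes that did not pass the test were Stk36, a kinase of the central pair, and 4 transport genes, Ift20, Ift74, Ift81 and Ift88. Ift20 was at 115 and 102 at LZ and 209 and 137 at PD and Ift88 at 19.8 and 12.4 at LZ and 27.9 and 18.5 at PD, so transcripts of these transport genes were already measured in the LZ libraries. Ift172, of the same transport complexes, did rise, from 6.07 and 2.63 to 34.2 and 16.7, a change of 2.30 (SE 0.51).

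In WT the axoneme list had a median of 4.18 and sums of 547 and 712 at LZ and 11640 and 11012 at PD, and the difference between the stage changes was called higher for 1 gene and lower for 1. The higher one was Foxj1, the master factor of motile cilia, at 3.07 and 6.61 in Cnot4-null PD and 0 and 0.198 in WT PD, with a difference of 2.22 (limma adjusted p = 0.0164), and the lower one was Lrrc6, a dynein assembly factor, with -2.56 (limma adjusted p = 0.0302). The 250 bases before a start of Tekt1 (GRCm38.p6, chr11:72361883-72362132, minus strand, 1 of 2 starts in the table, ranked first by number of matches) are shown for GTTGCCAT, one side of the X-box that RFX factors bind, at -15 (in capitals).
Tekt1: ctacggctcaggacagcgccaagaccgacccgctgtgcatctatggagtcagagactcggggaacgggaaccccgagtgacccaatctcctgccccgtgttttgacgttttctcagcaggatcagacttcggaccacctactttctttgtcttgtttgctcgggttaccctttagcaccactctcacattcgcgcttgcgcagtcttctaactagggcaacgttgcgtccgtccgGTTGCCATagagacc
GTTGCCAT, searched on both strands, was found upstream of 2.37% of the genes called higher, 0.378% of those called lower and 1.29% of all tested, and upstream of 1 of 25 axoneme genes with a sequence. Rfx2, the RFX factor of spermatogenic cells, was at 5.68 and 5.36 FPKM at LZ and 51.0 and 31.6 at PD, a log2 change of 2.66 (SE 0.34, limma adjusted p = 0.00649).

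The piRNA pathway changed gene by gene. Of 15 tested, 5 rose (33.3%) and 2 fell (13.3%), beside 19.24% and 9.48% of all genes, with a median of 0.61 (0.41 relative to all genes), 0.98 with PD replicate 1 and 0.45 with PD replicate 2. Relative to all genes this median was 0.84 after quantile normalization. Piwil1, the Piwi protein of pachytene piRNAs, was at 4.31 and 2.52 at LZ and 162 and 88.6 at PD, a log2 change of 4.80 (SE 0.41, limma adjusted p = 0.00340). Tdrd6, a Tudor protein of the chromatoid body, was at 0.487 and 0.473 at LZ and 57.4 and 38.2 at PD, a change of 5.01 (SE 0.35, limma adjusted p = 0.00257). Pld6, the mitochondrial nuclease that forms piRNA ends, was at 5.21 and 6.30 at LZ and 34.5 and 33.6 at PD, a change of 2.38 (SE 0.29). These 3 rose in both PD libraries, with Pld6 nearly equal in them. Tdrkh, which trims piRNAs with its nuclease partner, fell from 60.3 and 49.2 to 18.4 and 14.3, a change of -1.69 (SE 0.29, limma adjusted p = 0.0132), and Mov10l1, the helicase that feeds precursors into the pathway, fell from 105 and 83.4 to 43.0 and 48.6, a change of -1.02 (SE 0.28, limma adjusted p = 0.0430). Piwil2, the Piwi protein of earlier stages, was at 46.1 and 38.6 at LZ and 36.7 and 32.5 at PD, and Piwil4, of fetal germ cells, did not reach 1 FPKM in any of the 4 libraries.

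Most spermatid genes rose at PD in Cnot4-null. Of 21 tested, of 22 sought, 17 rose (81.0%) and 0 fell (0.0%), beside 19.24% and 9.48% of all genes, with a median of 3.05 (2.85 relative to all genes), 3.51 with PD replicate 1 and 2.66 with PD replicate 2. Acrv1, an acrosomal protein, was at 2.24 and 2.97 FPKM at LZ and 139 and 101 at PD, a log2 change of 5.05 (SE 0.32, limma adjusted p = 0.00225). Prm3, an acidic protamine-like gene of spermatids, was at 95.9 and 27.5 at LZ and 1561 and 548 at PD, a change of 4.14 (SE 0.74, limma adjusted p = 0.0142). Catsper1, the pore of the sperm calcium channel, was listed at 0 in both LZ libraries and at 10.4 and 6.82 at PD. For each of them both PD libraries were above both LZ libraries. Prm1, the protamine that replaces histones and the most abundant gene of the list, was at 1991 and 240.2 at LZ and 7592 and 2949 at PD, a change of 2.77 that did not pass the test (SE 1.04, limma adjusted p = 0.0980). Tnp1, a transition protein, was at 401 and 45.1 at LZ and 1706 and 976 at PD, and Tnp2, another, at 601 and 67.6 at LZ and 2755 and 1286 at PD, and neither passed it. For these genes the LZ libraries lay far apart, and LZ replicate 1 was above LZ replicate 2 in 18 of the 21 genes. With LZ replicate 1 left out the median of the list was 3.83, and with LZ replicate 2 left out it was 2.24.

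In WT the spermatid list did not go up between the stages, with a median of -0.52, and the difference between the stage changes was called higher in Cnot4-null for 16 of the 21 genes and lower for 0. Acrv1 was at 4.54 and 17.2 at WT LZ and 16.5 and 15.01 at WT PD, a difference of 4.31 (limma adjusted p = 0.00626). Smcp, of the sperm mitochondrial capsule, was at 771 and 921 in Cnot4-null PD and 47.5 and 58.2 in WT PD, a difference of 4.15 (limma adjusted p = 0.00389), and Odf1, of the outer dense fibres, at 184 and 364 in Cnot4-null PD and 7.82 and 12.9 in WT PD, a difference of 4.43 (limma adjusted p = 0.00436). Smcp and Odf1, with Tssk6, were the members of the list that were higher in PD replicate 2 than in PD replicate 1. Odf2, another dense fibre gene, was at 51.7 and 45.04 at LZ and 629 and 228 at PD in Cnot4-null and at 58.1 and 60.2 at LZ and 459.9 and 380.2 at PD in WT, so it was higher at PD in both genotypes.

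**Figure D3:**
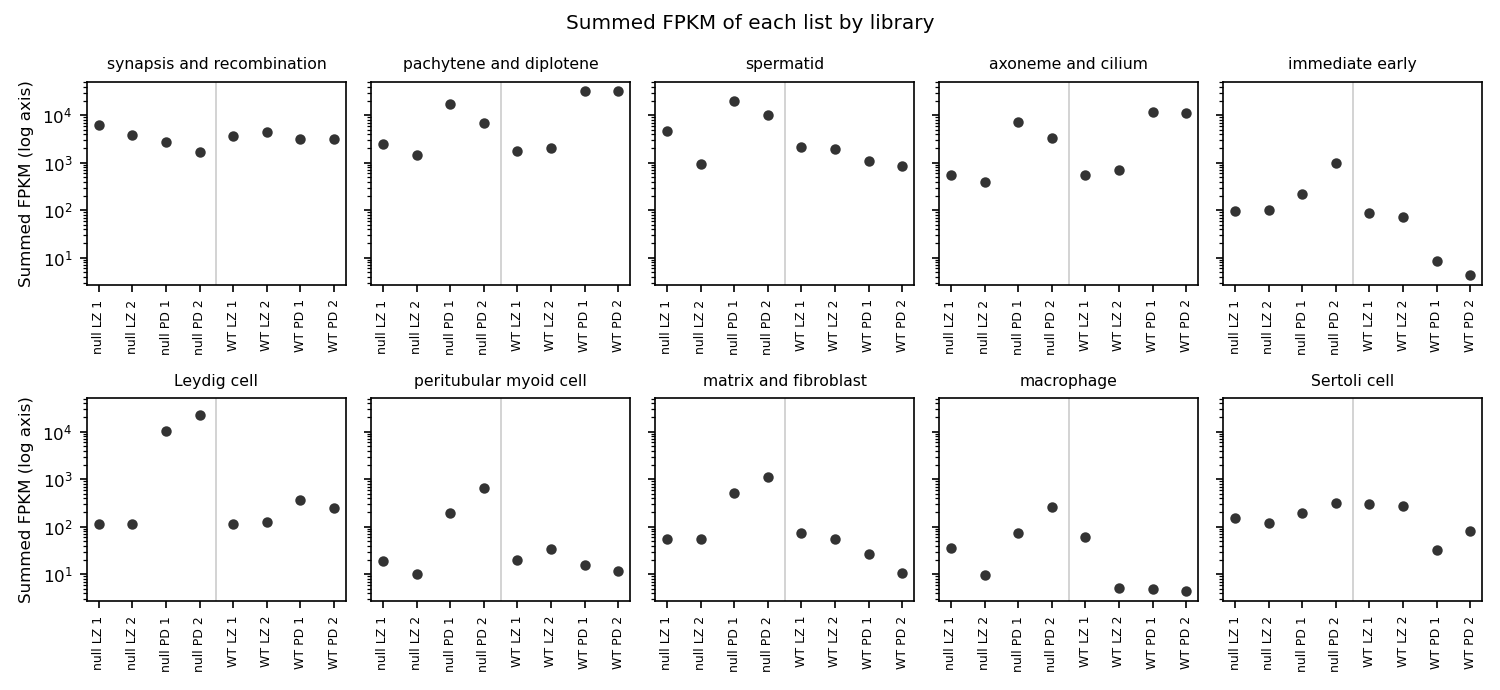
Summed FPKM (log axis) of the genes of 10 lists in each of the 8 libraries, 1 point per library. The Leydig cell list went from 116 and 114 at LZ to 10350 and 22510 at PD in Cnot4-null and was at 367 and 252 in WT PD, while the pachytene and diplotene list reached 17354 and 6959 in Cnot4-null PD and 32754 and 32659 in WT PD.

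Genes of the step from G2 to M phase, which germ cells take at the end of diplotene, fell more often than they rose. Of 23 tested, 1 rose (4.35%) and 8 fell (34.8%), beside 19.24% and 9.48% of all genes, with a median of -0.66 (-0.85 relative to all genes), -0.66 with PD replicate 1 and -0.98 with PD replicate 2. Relative to all genes the median was -0.49 after quantile normalization. Aurkc, the Aurora kinase of meiosis, rose from 2.46 and 1.24 FPKM at LZ to 53.3 and 21.7 at PD, a log2 change of 3.66 (SE 0.52, limma adjusted p = 0.00781). Bub1, a kinase of the spindle checkpoint, fell from 90.7 and 72.8 to 18.96 and 20.5, a change of -1.99 (SE 0.27, limma adjusted p = 0.00735). Cdk1, the kinase that drives cells into M phase, fell from 62.9 and 67.8 to 27.7 and 15.9, a change of -1.59 (SE 0.34, limma adjusted p = 0.0237). Aurkc and Cdk1 thus moved in opposite directions in both PD libraries. Of the B cyclins that activate Cdk1, Ccnb1 was at 176 and 176 at LZ and 111 and 88.4 at PD and Ccnb2 at 102 and 113 at LZ and 157 and 77.7 at PD, and neither passed the test. Fzr1, an activator of the anaphase complex, was at 27.3 and 31.4 at LZ and 44.9 and 33.2 at PD and did not pass it either. In WT PD, Cdk1 was at 48.0 and 45.8, and its stage change was lower in Cnot4-null by 1.67 log2 units (limma adjusted p = 0.0168). Over the list the difference was called higher for 4 genes, Ccna2, Ccnb1, Cdc25b and Cdc25c, and lower for 5. The largest of the higher ones was 2.197 for Cdc25b, a phosphatase that activates Cdk1 (limma adjusted p = 0.0125). Pttg1, the securin, and Nek2, a centrosome kinase, had lower stage changes in Cnot4-null, by 1.92 (limma adjusted p = 0.00885) and 1.61 (limma adjusted p = 0.00646).

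More X-linked genes fell than rose in Cnot4-null, and their median went down by less than in WT. Of 638 X-linked genes tested, 83 rose (13.0%) and 146 fell (22.9%), against 19.24% and 9.48% of all genes. Their median change was -0.35 (-0.54 relative to all genes), -0.50 with PD replicate 1 and -0.21 with PD replicate 2, while the medians of the 19 autosomes lay between 0.034 and 0.35. The X chromosome gave 2.61 and 2.5% of the summed FPKM at LZ and 1.45 and 1.95% at PD in Cnot4-null, and 2.39 and 2.48% at LZ and 0.246 and 0.222% at PD in WT. The X share was therefore lower at PD than at LZ in both genotypes and far lower at WT PD than at Cnot4-null PD. In WT the median stage change of the same genes was -1.84, and the difference was called higher in Cnot4-null for 352 of them and lower for 0. The 2 PD libraries differed, with the X-linked median higher in replicate 2, which was also the library with more somatic RNA, and somatic cells do not silence the X. What part that RNA had was not tested. The 13 genes placed on the Y chromosome summed to 259 and 199.8 at LZ and 96.2 and 98.0 at PD, and in WT to 169.8 and 219 at LZ and 4.61 and 6.45 at PD. Of the 10 tested, 1 rose and 3 fell, with a median of -0.74 (-0.49 without LZ replicate 1, -1.18 without LZ replicate 2).

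**Figure D4:**
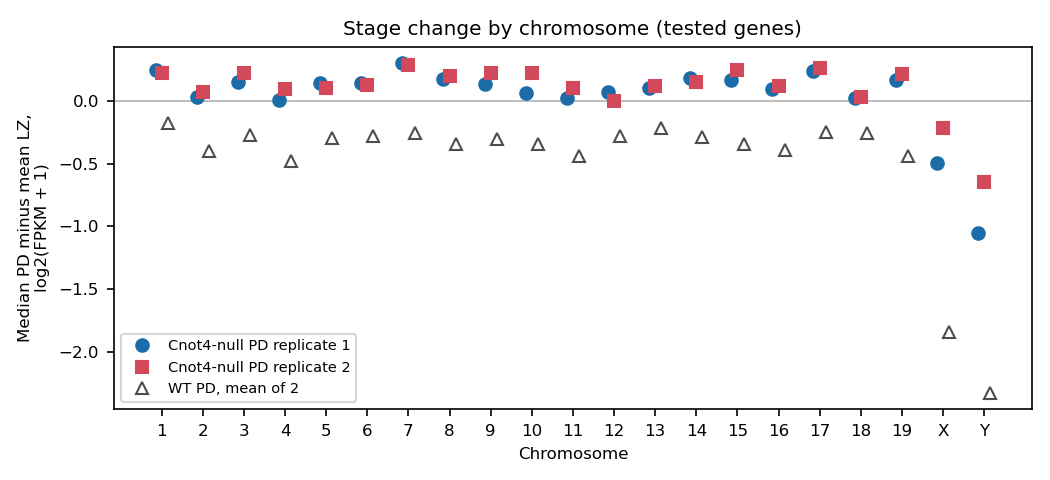
Median over the tested genes of each chromosome of the log2(FPKM + 1) level at PD minus the mean at LZ, for Cnot4-null PD replicates 1 (circles) and 2 (squares) and for the mean of the 2 WT PD libraries (triangles). The X-linked medians were -0.50 and -0.21 in Cnot4-null and -1.84 in WT, and the Y-linked medians -1.05, -0.65 and -2.33.

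Several X-linked housekeeping genes have autosomal copies that germ cells express when the X is silent. Of 7 such parents 3 fell (42.9%, beside 9.48% of all genes) and 0 rose, with a median of -0.89 (-1.09 relative to all genes), and of 7 copies 4 rose (57.1%, beside 19.24%) and 0 fell, with a median of 1.61 (1.41 relative to all genes), 2.03 with PD replicate 1 and 1.19 with PD replicate 2. Cetn1, the centrin copy, went from 32.8 and 10.8 FPKM at LZ to 1569.6 and 383 at PD, a log2 change of 5.28 (SE 0.80, limma adjusted p = 0.00922). Pgk2, the copy of the glycolytic phosphoglycerate kinase, went from 16.1 and 6.89 to 196 and 84.0, a change of 3.48 (SE 0.55, limma adjusted p = 0.0106). Its parent Pgk1 was at 35.4 and 39.3 at LZ and 16.8 and 22.96 at PD, a change of -0.89 that did not pass the test. Pgk2 was thus above Pgk1 in both PD libraries, with Pgk1 still present. Of the copies, Utp14b, at 7.92 and 6.80 at LZ and 7.31 and 7.76 at PD, Cstf2t, at 17.0 and 13.4 at LZ and 21.4 and 18.6 at PD, and Rbmxl2, at 42.5 and 20.2 at LZ and 36.3 and 22.8 at PD, did not pass the test. Cstf2, of mRNA 3′ end formation, was at 33.9 and 25.4 at LZ and 8.45 and 9.25 at PD, a change of -1.62 (SE 0.30), and Rbmx, a splicing protein, at 11.9 and 11.7 at LZ and 1.35 and 4.45 at PD, a change of -1.84 (SE 0.48). The parents summed to 1226 and 965 at LZ and 595 and 829 at PD in Cnot4-null and to 1023 and 925 at LZ and 33.2 and 21.2 at PD in WT, and the difference was called higher for 6 of the 7. The copies summed to 253 and 183 at LZ and 2430 and 846 at PD in Cnot4-null and 188 and 229 at LZ and 3500 and 3175 at PD in WT, and the difference was called in either direction for 0 of them.

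Of 83 cytosolic ribosomal protein genes 2 rose (2.41%) and 5 fell (6.02%), beside 19.24% and 9.48% of all genes, with a median of -0.68 (-0.87 relative to all genes), -0.52 with PD replicate 1 and -0.84 with PD replicate 2. After quantile normalization the median relative to all genes was -0.20. The list took 21.3 and 21.2% of the summed FPKM at LZ and 13.3 and 12.9% at PD in Cnot4-null, and 21.8 and 21.5% at LZ and 8.31 and 8.22% at PD in WT, where the median was -1.32. Rps27l, a paralog of a small subunit protein, fell from 3785 and 2748 to 1251 and 760.3, a log2 change of -1.72 (SE 0.40, limma adjusted p = 0.0293). Rpl3l, a muscle paralog, was at 4.57 and 3.51 at LZ and 2.13 and 0 at PD and did not pass the test. The genes that rose were Rpl10l, the testis copy of an X-linked gene, at 119 and 111 at LZ and 473 and 263 at PD, and the X-linked Rps4x, at 58.2 and 48.4 at LZ and 158 and 288 at PD, a change of 1.99 (SE 0.37, limma adjusted p = 0.0156). Rps4x was at 5.15 and 1.40 in WT PD, so its stage change differed between the genotypes by 5.18 (limma adjusted p = 0.00266).

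Of 78 oxidative phosphorylation genes 3 rose (3.85%) and 7 fell (8.97%), beside 19.24% and 9.48% of all genes. The sign of their median depended on the library, at 0.11 with PD replicate 1 and -0.62 with PD replicate 2, against -0.074 without LZ replicate 1 and -0.39 without LZ replicate 2, and relative to all genes it was -0.44 as measured but 0.058 after quantile normalization. Cox8c and Cox6b2, cytochrome oxidase subunits of the testis, rose, Cox8c from 143 and 131 to 4586 and 1768 (log2 change 4.37, SE 0.50) and Cox6b2 from 150.3 and 98.7 to 1891 and 789 (log2 change 3.32, SE 0.49). The X-linked Ndufa1, of complex I, fell from 1787 and 1018 to 370.4 and 289, a change of -2.04 (SE 0.38), and Atp5f1, of the ATP synthase, fell from 450.0 and 383 to 157 and 131, a change of -1.53 (SE 0.28). Cox8c and Cox6b2 thus rose while Ndufa1 and Atp5f1, forms shared with other tissues, fell. Of the 78 genes, 68 passed the test in neither direction. Of 39 proteasome genes 3 rose (7.69%) and 5 fell (12.8%), beside 19.24% and 9.48% of all genes, with a median of -0.51 (-0.70 relative to all genes), -0.30 with PD replicate 1 and -0.80 with PD replicate 2. With quantile normalization the proteasome median relative to all genes was -0.33. Those that rose were Psma8, from 21.8 and 24.8 to 102 and 52.2, and the immunoproteasome subunits Psmb8, from 1.31 and 0 to 6.24 and 9.83, and Psmb9, which reached 7.22 and 7.53 at PD, a log2 change of 2.05 (SE 0.52). Psmd5, an assembly chaperone, fell by 1.35 log2 units (SE 0.29) and Psmc6, an ATPase of the base, by 1.31 (SE 0.33).

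Genes of mRNA deadenylation and decay, the machinery to which CNOT4 belongs, passed the test in a few cases. Of 29 tested, 2 rose (6.9%) and 3 fell (10.3%), beside 19.24% and 9.48% of all genes, with a median of -0.38 (-0.58 relative to all genes), -0.59 with PD replicate 1 and -0.41 with PD replicate 2. Cnot4 itself was at 43.2 and 34.6 FPKM at LZ and 65.9 and 53.5 at PD, a log2 change of 0.61 that did not pass the test (SE 0.28, limma adjusted p = 0.161), and a single FPKM value per gene cannot show whether exon 2 was missing. In WT, Cnot4 was at 36.0 and 34.9 at LZ and 76.6 and 73.1 at PD. Its stage changes were not called different (limma adjusted p = 0.249). Btg4, an adaptor that brings the complex to mRNAs, rose from 1.65 and 0.399 to 14.0 and 6.66, a change of 2.48 (SE 0.52, limma adjusted p = 0.0223). Dcp1b, a cofactor of decapping, rose from 4.12 and 3.36 to 17.0 and 12.4, a change of 1.72 (SE 0.34, limma adjusted p = 0.0190). The genes that fell were Cnot6, a deadenylase of the complex, from 51.2 and 43.8 to 21.9 and 24.0, Lsm1, of the ring that binds shortened tails, from 61.4 and 51.3 to 30.7 and 25.4, and Zcchc11, a uridylyl transferase, from 43.9 and 37.8 to 13.5 and 17.6. Cnot1, the scaffold, was at 40.8 and 35.0 at LZ and 35.6 and 26.7 at PD in Cnot4-null and at 30.7 and 30.7 at LZ and 75.0 and 69.4 at PD in WT. Its stage change was lower in Cnot4-null by 1.49 log2 units (limma adjusted p = 0.0108). Parn, a poly(A) nuclease, was at 16.8 and 14.2 in Cnot4-null PD and 0.854 and 1.09 in WT PD, a difference of 3.22 (limma adjusted p = 0.00136). Btg3 had values near 0 in 3 of the 4 libraries and 0.00260 and 5.45 at LZ, and the files do not say how its reads were assigned.

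Immediate early genes, which cells switch on within minutes of a stimulus or of handling, had a higher median at PD, most in replicate 2. Of 17 tested, 7 rose (41.2%, beside 19.24% of all genes) and 0 fell, with a median of 2.24 (2.05 relative to all genes), 1.06 with PD replicate 1 and 3.47 with PD replicate 2. The summed FPKM was 97.9 and 101 at LZ and 216 and 1005 at PD in Cnot4-null, and 87.6 and 71.2 at LZ and 8.52 and 4.25 at PD in WT. Fos, a subunit of the AP-1 factor and the most abundant gene of the list, was at 17.1 and 13.2 at LZ and 64.9 and 227 at PD, a log2 change of 2.94 (SE 0.60, limma adjusted p = 0.0205). Junb, its partner, was at 1.02 and 2.25 at LZ and 10.999 and 116 at PD, a change of 3.87 (SE 1.04, limma adjusted p = 0.0425). Zfp36, which binds AU-rich elements and recruits the CCR4-NOT complex, was at 4.05 and 2.17 at LZ and 14.2 and 139 at PD, a change of 3.53 that did not pass the test (SE 1.02, limma adjusted p = 0.0506). In all 3 genes both PD libraries were above both LZ libraries, and replicate 2 was several-fold above replicate 1. Hspa1b, an inducible heat shock gene, was at 6.19 and 3.73 at LZ and 1.90 and 2.25 at PD, lower in both PD libraries, and did not pass the test. The difference from WT was called higher for 13 of the 17 genes, with 5.26 for Fos (limma adjusted p = 0.00877) and 4.54 for Junb (limma adjusted p = 0.0382).

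The markers of somatic cells of the testis are given list by list. Many of them enter the test through the PD libraries in which they are high, which the counts and medians below do not correct for. The number above 1 FPKM in at least 1 LZ library was 5 of 12 for Leydig cells, 4 of 8 for myoid cells, 10 of 16 for matrix, 8 of 12 for macrophages, 8 of 11 for Sertoli cells and 0 of 2 for endothelial cells. The size of these medians also depends on how low values are treated. With a pseudocount of 0.1 the median was 6.03 for the Leydig cell, 3.22 for the macrophage, 3.36 for the matrix and 4.70 for the myoid list, and over genes with a mean of at least 5 FPKM it was 4.67, 3.14, 3.83 and 3.38, each above the median given below. Of 12 Leydig cell genes 11 rose (91.7%) and 0 fell (0.0%), beside 19.24% and 9.48% of all genes, with a median of 3.10 (2.91 relative to all genes), 2.82 with PD replicate 1 and 3.68 with PD replicate 2. The summed FPKM was 116 and 114 at LZ and 10350 and 22510 at PD in Cnot4-null, and 113 and 123 at LZ and 367 and 252 at PD in WT, and the most abundant gene was Insl3. The enzymes of steroid synthesis rose along the pathway. Cyp11a1, which cleaves the side chain of cholesterol, was at 0.106 and 0 at LZ and 67.3 and 77.5 at PD, a log2 change of 6.12 (SE 0.32, limma adjusted p = 0.00168). Cyp17a1 was at 0 and 0.450 at LZ and 168 and 278 at PD (limma adjusted p = 0.00168 for the change given above). Hsd3b1, the dehydrogenase between them, was at 0 and 0.625 at LZ and 89.7 and 216 at PD, a change of 6.78 (SE 0.52, limma adjusted p = 0.00293). These enzymes were at or under 1 FPKM at LZ and higher in PD replicate 2 than in PD replicate 1. Lhcgr, the receptor for luteinizing hormone, was listed at 0 in both LZ libraries and at 4.03 and 8.85 at PD. Scarb1, a lipoprotein receptor that other cells also express, was the gene that did not pass the test, at 9.99 and 12.6 at LZ and 11.5 and 10.4 at PD.

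Of 8 peritubular myoid genes, which make the contractile wall of the tubule, 7 rose (87.5%) and 0 fell (0.0%), beside 19.24% and 9.48% of all genes, with a median of 2.93 (2.73 relative to all genes), 1.99 with PD replicate 1 and 3.82 with PD replicate 2. They summed to 19.4 and 10.3 at LZ and 199 and 647 at PD, and Myl9, a myosin light chain, was the most abundant. Acta2, smooth muscle actin, was at 0.211 and 0 at LZ and 42.8 and 209 at PD, a log2 change of 6.44 (SE 0.74, limma adjusted p = 0.00522), and Myl9 at 3.03 and 1.84 at LZ and 85.4 and 293 at PD, a change of 5.56 (SE 0.61, limma adjusted p = 0.00480). Of 16 matrix and fibroblast genes tested, 10 rose (62.5%) and 1 fell (6.25%), beside 19.24% and 9.48% of all genes, with a median of 2.31 (2.11 relative to all genes) and sums of 54.0 and 55.1 at LZ and 522 and 1091 at PD, of which Dcn was the most abundant. Sparc, a collagen-binding protein, rose from 2.62 and 3.72 to 120.2 and 228, a change of 5.33 (SE 0.40), and Fn1, fibronectin, fell from 20.97 and 18.8 to 2.93 and 7.16, a change of -1.88 (SE 0.43). Fbln1, fibulin, was at 8.28 and 8.72 at LZ and 3.79 and 10.3 at PD and did not pass the test. The 3 matrix genes not tested, Lama4, Lum and Igfbp5, were under 1 FPKM in all 4 libraries and are included in the sums. PD replicate 2 was the higher PD library for 7 of 8 myoid and 16 of 16 matrix genes.

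Of 12 macrophage genes tested, 2 rose (16.7%, beside 19.24% of all genes) and 0 fell, with a median of 1.996 (1.80 relative to all genes), 1.26 with PD replicate 1 and 2.73 with PD replicate 2, and sums of 36.3 and 9.60 at LZ and 75.6 and 266 at PD. Lyz2, lysozyme, rose from 0.780 and 0 to 11.1 and 40.8, a log2 change of 4.07 (SE 0.67, limma adjusted p = 0.0117). Cd74, the invariant chain of class II antigen presentation and the most abundant gene of the list, was at 9.79 and 0 at LZ and 16.7 and 76.7 at PD, which did not pass the test. Cd163, a scavenger receptor, was at 2.65 and 1.85 at LZ and 1.01 and 1.17 at PD, a change of -0.63, and Cd68, a lysosomal protein, at 3.72 and 1.65 at LZ and 1.16 and 3.29 at PD, a change of -0.22, and neither passed it. Mrc1, the mannose receptor, was under 1 FPKM in all 4 libraries. The macrophage sums include it, and those of WT were 60.54 and 5.209 at LZ and 4.965 and 4.417 at PD. Of 15 Sertoli cell genes in the files 11 were tested, 3 rose (27.3%) and 0 fell (0.0%), beside 19.24% and 9.48% of all genes, with a median of 0.39 that changed sign to -0.20 under quantile normalization. It was 1.12 with PD replicate 1 alone, 0.75 with PD replicate 2 alone, 0.62 without LZ replicate 2 and 0.92 over genes with a mean of at least 5 FPKM. Their sums were 152 and 117 at LZ and 196 and 316 at PD, and Ctsl, a protease that many cells express, was the most abundant, at 123 and 85.5 at LZ and 39.9 and 55.7 at PD. The Sertoli sums in WT were 308 and 272 at LZ and 31.65 and 81.6 at PD, so those of WT LZ were not below Cnot4-null PD replicate 1. Clu, clusterin, rose from 4.56 and 6.88 to 94.6 and 196, a change of 4.37 (SE 0.43, limma adjusted p = 0.00408), and Inha, an inhibin subunit, from 0.661 and 1.64 to 6.65 and 19.06, a change of 2.57 (SE 0.57). In WT, Clu was at 55.9 and 47.4 at LZ and 8.06 and 15.3 at PD. Cldn11, a tight junction claudin, was at 0.798 and 1.68 at LZ and 1.86 and 0.113 at PD and did not pass the test. The defining Sertoli markers Sox9, Amh, Fshr and Dhh did not pass 1 FPKM in any of the 4 libraries, and Wt1 was at 0.979 and 0.866 at LZ and 0.967 and 2.23 at PD. The sum of the Sertoli list was below that of the Leydig list in both PD libraries, and most of the Leydig sum was Insl3. Of 8 endothelial genes 2 were tested, and 0 passed the limma test. Cdh5, a junction cadherin, was at 0.220 and 0.0778 at LZ and 1.07 and 4.95 at PD, with an unadjusted p of 0.0360, and Tek, an angiopoietin receptor, at 0 and 0.232 at LZ and 0.105 and 1.70 at PD, with an unadjusted p of 0.291. The list summed to 0.461 and 0.615 at LZ and 2.39 and 7.93 at PD. Of 5 erythroid genes none reached 1 FPKM in the 4 libraries, and the alpha globins Hba-a1 and Hba-a2 were listed at 0 in all of them. The part of these cell types in the stage change of germ cell genes was not tested.

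**Figure D5:**
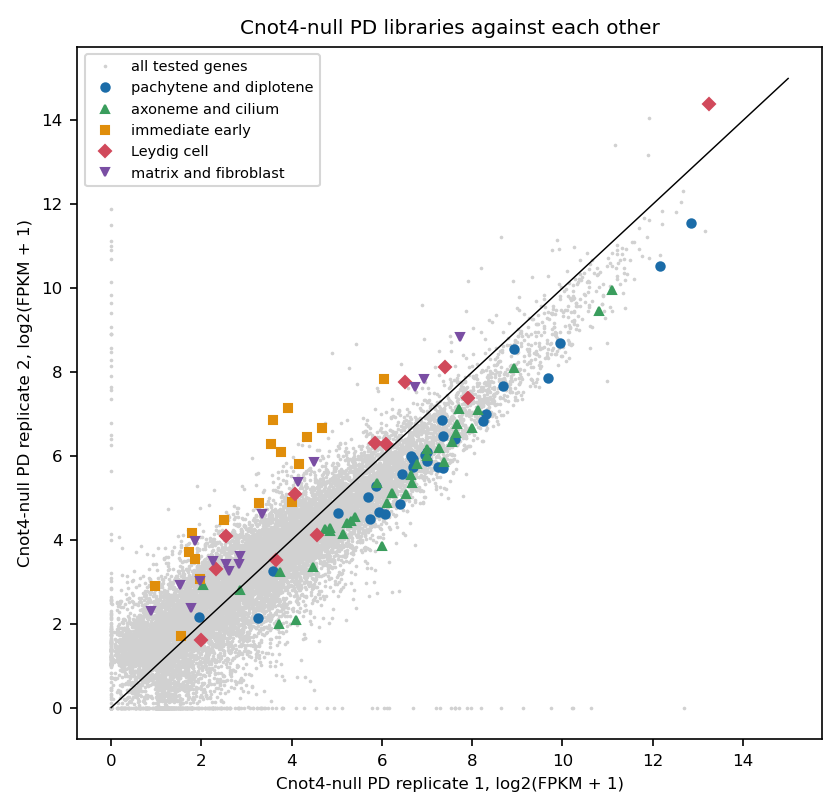
Level of each tested gene in Cnot4-null PD replicate 2 against PD replicate 1, as log2(FPKM + 1), with all 15537 genes in grey, members of 5 lists in colour and the line of equal levels. Pachytene and axoneme genes lie below the line, with 29 of 30 and 33 of 34 higher in replicate 1, and immediate early and matrix genes above it, with 17 of 17 and 16 of 16 higher in replicate 2.

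Beyond the lists, the genes that differed most between the 2 PD libraries were low or at 0 in 1 of them. Among genes with a mean of at least 5 FPKM there, Rn45s, the ribosomal RNA precursor, was at 5859.9 and 0 FPKM in LZ replicates 1 and 2 and 6611 and 0 in PD replicates 1 and 2, so it was high in both Cnot4-null libraries numbered 1 and listed at 0 in both numbered 2. The WT libraries did not all follow this, with Rn45s at 18155 and 0 at LZ and 822 and 2951 at PD. Klk1, a kallikrein protease, was at 1.98 and 0 at LZ and 20.3 and 0.563 at PD, Svs5, a seminal vesicle secretory gene, at 18.4 and 7.41 at LZ and 73.9 and 5.71 at PD, Klk1b9, another kallikrein, at 1.75 and 0 at LZ and 12.8 and 0 at PD, and Defb40, a defensin, was listed at 0 in all but PD replicate 1, where it was at 16.03. On the side of replicate 2, Ccl3, a chemokine, was at 0 and 14.8 in PD replicates 1 and 2 and Cxcl2, another chemokine, at 0.177 and 12.9. Lilrb4, a receptor of myeloid cells, was at 0.128 and 15.9, and Sln, which regulates the calcium pump of muscle, at 0 and 16.7. With 1 library against 1 these differences were not tested. Hist1h4c, a replication histone, was at 27.0 and 29.2 at LZ and 1.40 and 25.6 at PD, so PD replicate 2 lay near the LZ libraries, slightly below both.

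Set against WT, the stage change was higher in Cnot4-null for 4139 of the 15899 genes tested in all 8 libraries (26.0%) and lower for 631 (3.97%) by the limma test of the difference. Over the 15537 genes the median difference between the stage changes was 0.66, so most genes lay above WT. With quantile normalization the balance turned round, to 1548 higher and 1966 lower, while after a rescaling of each library by its median, 3279 were higher and 1903 lower. The counts also depend on single libraries. Without WT PD replicate 1 they were 1705 and 72, without WT PD replicate 2 they were 1603 and 53, without WT LZ replicate 1 they were 2413 and 156, and without WT LZ replicate 2 the lower count was 260. Without Cnot4-null LZ replicate 1 or 2 both counts were smaller, and without Cnot4-null PD replicate 1 or 2 both were larger. Of the 2989 genes called higher at PD in Cnot4-null, the difference from WT was called higher for 1132 and lower for 129, and of the 1473 called lower it was called higher for 654 and lower for 32. The median WT change was 1.58 over the first group and -2.50 over the second, beside -0.33 over all genes. Because both groups were chosen by their change in Cnot4-null, these medians do not compare the size of the change between the genotypes. The genes whose stage change was most above WT were Ptgds, by 9.83 (limma adjusted p = 0.00282), Insl3, by 9.14 (limma adjusted p = 0.00882), and Fabp3, by 8.42 (limma adjusted p = 0.00204). After them came Aldh1a1, a retinaldehyde dehydrogenase, by 8.40 (limma adjusted p = 0.00103), and Gstm2, a glutathione transferase, by 8.34 (limma adjusted p = 0.00147).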

How the data were processed

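RNA of sorted spermatocytes was sequenced from 8 libraries, 2 per genotype and stage. The deposited values are FPKM that the authors computed per library with Cufflinks 2.2.1 from reads mapped to mm9 with TopHat 2.1.1 and UCSC gene models, and the methods state no scaling between libraries. The paper's supplement lists total reads per library. They were not used here, and the precision that depth gives to each FPKM was not computed. The methods describe Smart-Seq2 libraries of sorted cells while the labels name total RNA kits, and the files do not settle which was used.

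The stage change was fitted on log2(FPKM + 1) of the 4 Cnot4-null libraries by moderated linear models (limma 3.58.1, run under R 4.3.3), with the prior variance allowed to follow mean level, over genes with FPKM above 1 in at least 1 of the 4, with Benjamini-Hochberg adjustment and a threshold of 0.05. The difference between the genotypes in the stage change was fitted in the same way on all 8 libraries. That fit takes 1 spread per gene over the 4 groups, so the closer WT PD duplicates enter its p-values. The Spearman correlation across genes was 0.971 for the WT PD pair and 0.887 for the Cnot4-null PD pair. The WT stage change is the mean of WT PD minus the mean of WT LZ. Figures came from matplotlib 3.10.9 and tables from pandas 2.3.3, both under Python 3.11.15 together with scipy 1.17.1 as well as numpy 2.4.6. Chromosomes were taken from the GENCODE vM1 annotation for 21942 symbols, and upstream sequences from RefSeq starts on GRCm38.p6. The p-values measure only the spread between these libraries, which the methods call biological replicates without stating separate animals. An exact test of 2 against 2 libraries cannot go below 0.333. Same-numbered Cnot4-null libraries deviated together with a correlation across genes of 0.196, and no pairing is stated, so replicates were not paired except in an alternative.

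Genes were named by rule. The rule takes Cnot4, the 10 largest called rises and falls with no overlap between the stages and a mean of at least 5 FPKM at the higher stage, the 2 genes of each list that changed most in each direction with members needed to say what a list holds, the 5 genes in each direction that differed most between the PD libraries, and the 5 largest called differences between the genotypes in each direction. Entries for small RNAs and unnamed clones or models were left out. A gene of the DNA replication list that the rule would name is not reported here. The genes included, the 22 lists and these rules were chosen with earlier results of these data known. Alternatives were no filter, a mean of at least 5 FPKM, a pseudocount of 0.1, quantile normalization, rescaling to the same median, no trend, all 8 libraries in the fit, a replicate block, an adjusted p under 0.01, and leaving out each library.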

Additional observations from a re-analysis of the deposited data

Results flagged for a closer look

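The results given here were marked because the stage change differed between the genotypes by the limma test of the difference, over 15899 genes in 8 libraries. The stage change was higher in Cnot4-null for 4139 genes (26.0%) and lower for 631 (3.97%). With quantile normalization the balance turned round, at 1548 higher and 1966 lower, while after rescaling 3279 were higher and 1903 lower. Leaving out single libraries moved the counts too, from 1603 to 5856 for the higher and from 53 to 2073 for the lower.

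The 5 largest called differences with a lower stage change in Cnot4-null, among genes that pass the filter on symbols and level, were these. Tmed6, a membrane trafficking gene, was at 2.52 and 2.23 FPKM at LZ and 23.5 and 5.16 at PD in Cnot4-null and at 0.236 and 0.670 at LZ and 94.6 and 101 at PD in WT, a difference of -4.24 log2 units (SE 0.81, limma adjusted p = 0.0102). Ppp1r27, a regulatory subunit of a phosphatase, was at 0.874 and 0.515 at LZ and 78.5 and 14.2 at PD in Cnot4-null and at 0.272 and 0.773 at LZ and 269 and 245 at PD in WT, a difference of -3.05 (SE 0.95, limma adjusted p = 0.0483). Both genes were higher at PD in both genotypes and highest in the 2 WT PD libraries.

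Moap1, a modulator of apoptosis, was at 24.1 and 27.9 at LZ and 0.993 and 9.79 at PD in Cnot4-null and at 24.3 and 24.5 at LZ and 68.1 and 65.5 at PD in WT, a difference of -3.96 (SE 0.94, limma adjusted p = 0.0210). It was lower at PD in Cnot4-null and higher at PD in WT. Csrp2, a LIM domain protein, was at 10.4 and 11.6 at LZ and 20.4 and 18.8 at PD in Cnot4-null and at 6.13 and 0.644 at LZ and 52.3 and 52.2 at PD in WT, a difference of -3.18 (SE 0.83, limma adjusted p = 0.0284). Cypt9, of a family of testis genes with several similar copies, was at 7.88 and 9.02 at LZ and 0.00250 and 0.000400 at PD in Cnot4-null and at 0.000100 and 17.0 at LZ and 26.4 and 18.8 at PD in WT, a difference of -5.69 (SE 1.59, limma adjusted p = 0.0353). The WT LZ libraries lie far apart for Cypt9, and how reads were divided among the copies is not stated.

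The 5 largest in the other direction were Ptgds, Insl3, Fabp3, Aldh1a1 and Gstm2, of which Insl3 is in a somatic list. Insl3 was at 14.99 and 8.75 FPKM at LZ and 104 and 4.90 at PD in WT, and the difference was 9.14 (SE 1.68, limma adjusted p = 0.00882). Ptgds was at 19.15 and 6.86 at LZ and 15.98 and 1.37 at PD in WT, a difference of 9.83 (SE 1.28, limma adjusted p = 0.00282), and Fabp3 at 8.21 and 6.07 at LZ and 18.2 and 2.69 at PD, a difference of 8.42 (SE 0.97, limma adjusted p = 0.00204). In each of the 5 genes the WT PD libraries also differ from each other, with replicate 1 the higher. Aldh1a1 was at 1.001 and 0.886 at LZ and 183 and 421 at PD in Cnot4-null and at 4.595 and 5.72 at LZ and 2.94 and 0.706 at PD in WT, a difference of 8.40 (SE 0.70, limma adjusted p = 0.00103). Gstm2 was at 3.75 and 5.76 at LZ and 366 and 661 at PD in Cnot4-null and at 24.5 and 35.3 at LZ and 14.0 and 3.48 at PD in WT, a difference of 8.34 (SE 0.80, limma adjusted p = 0.00147). For all 5 the other 6 libraries lay far below the Cnot4-null PD duplicates, and the part of cells of other types in these values was not tested.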

How the results depend on the processing

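In fits that leave out 1 library, the lone library of its group is assumed to vary like the other groups. The alternatives without each WT library were chosen after seeing the data. The cause was not tested for any change given here, except that a stricter threshold calls fewer genes by construction.

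The 2989 genes called higher by limma became 1163 at an adjusted p under 0.01 and 265 to 2104 without 1 library. The 1473 called lower became 2905 with all 8 libraries in the fit, 3213 with quantile normalization, 2547 with a replicate block, 158 at an adjusted p under 0.01 and 27 to 295 without 1 library. The percent of called genes that were higher, 67.0, went to the other side with quantile normalization, at 41.5, and was 88.0 at an adjusted p under 0.01 and 87.7 to 95.6 without 1 library.

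The median change of all genes, 0.20, was -0.14 over genes with a mean of at least 5 FPKM, 0.15 with no filter, 0.23 with a pseudocount of 0.1, -0.31 with quantile normalization, 0.17 after rescaling and 0.15 to 0.23 without 1 library. The X-linked median, -0.35, was -0.90 over genes with a mean of at least 5 FPKM, -0.090 with no filter, -0.86 with quantile normalization and -0.50 to -0.21 without 1 library. The Y-linked median, -0.74, was -1.35 over genes with a mean of at least 5 FPKM and -1.43 with quantile normalization. Of the lists, the Sertoli cell median changed sign with quantile normalization and the oxidative phosphorylation median without PD replicate 2, at 0.11.

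The 4139 genes with a higher stage change in Cnot4-null than in WT became 1548 with quantile normalization, 1650 at an adjusted p under 0.01 and 1603 to 5856 without 1 library. The 631 with a lower one became 1966 with quantile normalization, which turned the balance round, 1903 after rescaling (with 3279 higher), 59 at an adjusted p under 0.01 and 53 to 2073 without 1 library.

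Of 101 named genes 69 were called. Of these, 69 were also called in the same direction with all 8 libraries, with a replicate block and after rescaling, 66 with no trend, with a pseudocount of 0.1 and with a mean of at least 5 FPKM, 65 with quantile normalization, 61 with no filter and 43 at an adjusted p under 0.01, and 0 were reversed. Calls were also gained, by 16 named genes with a replicate block, 9 with all 8 libraries and 6 with quantile normalization. A gene said above not to pass the test is judged by the main fit, which had no block. Without 1 library 23 to 34 passed. Genes that were not called changed sign. Tek was at -0.076 with quantile normalization. Without 1 library, the log2 change ran from -0.0067 to 1.28 for Tek, -0.55 to 0.49 for Rbmxl2, -0.98 to 0.38 for Cldn11, -0.19 to 0.12 for Scarb1, -0.71 to 0.28 for Cd68 and -0.99 to 0.25 for Fbln1. Among genes that differ between the PD libraries it ran from -6.26 to 6.43 for Rn45s, 0 to 4.09 for Defb40, -0.73 to 3.06 for Klk1b9, -0.14 to 3.63 for Klk1, -0.93 to 2.55 for Svs5, 0 to 4.15 for Sln and 0 to 3.985 for Ccl3. What depth limits was not analysed here.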

Other observations

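Entries for small RNAs, such as small nucleolar RNAs and microRNA precursors, gave 132 tested symbols of 731 in the files, of which 9 rose (6.82%) and 15 fell (11.4%), beside 19.24% and 9.48% of all genes, with a median log2 change of -1.14, -1.52 with PD replicate 1 and -0.72 with PD replicate 2. They summed to 65862 and 55637 FPKM at LZ and 38906 and 59031 at PD, so the PD libraries lay on either side of the lower LZ library. FPKM of entries shorter than the sequenced fragments depend on how their length is counted, and these symbols were left out of the named genes.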
